A study of Mus musculus with 3 samples.

Results

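In a heart section, most messenger RNA of a capture spot comes from cardiomyocytes, and a large part of it comes from the mitochondrial genome. The spots with the lowest mitochondrial share were examined in 3 spatial transcriptome libraries (Visium) of mouse hearts. In each section, the share of unique molecular identifiers (UMIs) from the 13 mitochondrial genes was taken for every spot with at least 200 detected genes, and the spots at or below the 5th percentile of that share were compared with the other spots of the same section. The low-mitochondrial (low-mt) spots numbered 112 (sham), 105 (I/R) and 98 (SBP) among 2234, 2082 and 1960 kept spots, together 315 of 6276. They were chosen from the same counts that are described here, so their levels are a description and no p-value is given.

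Mitochondrial messenger RNAs encode subunits of the respiratory chain and of the ATP synthase. Cardiomyocytes, which beat without pause and burn mainly fatty acids, are packed with mitochondria, whereas leukocytes, fibroblasts and smooth muscle cells of the heart hold far fewer. After ischemia and reperfusion, the wounded myocardium loses cardiomyocytes, takes in neutrophils and monocytes from the blood and begins to lay down a provisional matrix.

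All mice were C57BL/6 and 8 weeks of age, and each received 7 days of gavage before the operation. The sham mouse received vehicle and a needle pass without ligation. The I/R mouse received vehicle, ligation of the left anterior descending coronary artery (LAD) for 30 min and reperfusion for 24 h, and the third mouse received the same operation after gavage with MUSKARDIA. That label was taken as the SBP arm (Shexiang Baoxin Pill, a Chinese herbal medicine), an inference from the 3 arms of the study, since the paper does not use the name. Each condition has 1 section of 10 µm and thus no replicate, so a difference between conditions and a difference between mice, blocks or slide areas cannot be told apart. A spot covers a small piece of tissue that can hold several cells of different types, and fewer cells of a type and less RNA per cell cannot be told apart in it.

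Sequencing depth came to 25118258, 30238530 and 21631280 UMIs over the kept spots of sham, I/R and SBP, and the low-mt spots held 5.41%, 3.78% and 3.73% of them. In sham the median was 11947 UMIs in low-mt against 10614.5 UMIs in other spots. In I/R the medians were 9494 and 14786 UMIs, and in SBP, where 61.2% of the low-mt spots lay below the 10th percentile of depth of the other spots, they were 5948.5 and 10753.5 UMIs. These depths include mitochondrial UMIs, which the choice of spots lowers. Outside the mitochondrial genes, the 105 low-mt spots of I/R held 1021606 UMIs and the 1977 other spots 15809651 UMIs. In SBP the 98 low-mt spots held 610948 UMIs and the 1862 other spots 10998394 UMIs. The median number of detected genes in I/R was 3304 in low-mt against 2593 in other spots. In SBP it was 2138 against 2100.5 and in sham 3101 against 2018.5. Barcodes come from a fixed set for the slide design, and 1565 barcodes were shared by sham and I/R, 1563 by sham and SBP and 1205 by I/R and SBP. In the other spots, the contractile genes of ventricular cardiomyocytes took 96283 to 131151 UMIs of each 1000000 outside the mitochondrial genes, while the atrial light chain Myl7 had 3, 3 and 4 UMIs in all, so the tissue was ventricular by these markers.

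The low tail of the mitochondrial share was of very different length in the 3 sections. The median share over all kept spots was 49.5%, 46.9% and 47.0% in sham, I/R and SBP. The threshold at the 5th percentile was 38.2%, 14.3% and 29.8% in sham, I/R and SBP. Low-mt spots of sham ranged from 12.7% to 38.1% with a median of 32.4%, those of I/R from 4.35% to 14.3% with a median of 11.5%, and those of SBP from 7.97% to 29.8% with a median of 25.1%. Hence the low-mt spots of sham and of I/R hardly overlapped in share, although both are the lowest 5% of their section.

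**Figure D1:**
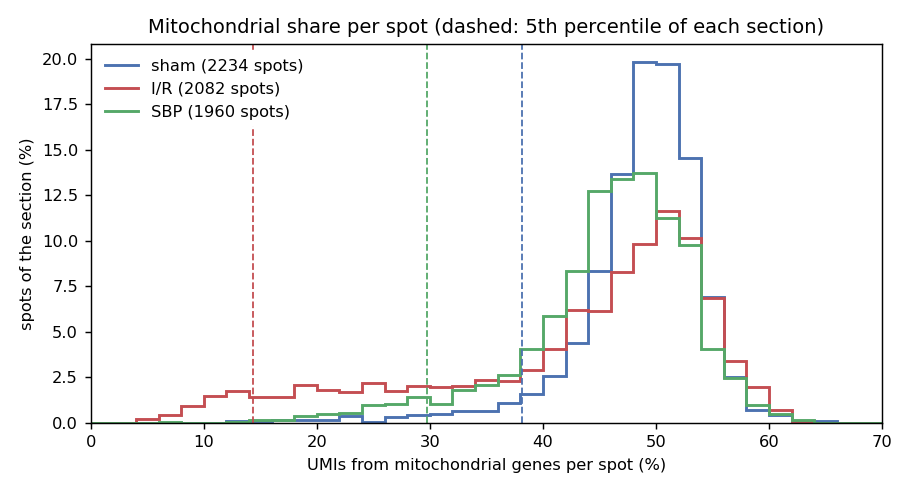
Share of UMIs from mitochondrial genes per spot (x axis, percent) against the percent of spots of the section (y axis), in steps of 2 percentage points, with the 5th percentile of each section as a dashed line. The peaks lie near one another, while the low tail reaches 12.7%, 4.35% and 7.97% in sham, I/R and SBP.

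Measured against 1 common threshold, the lowest share of the sham section was frequent in I/R. At or below the sham threshold of 38.2% lay 584 of 2082 spots of I/R, 28.0% (95% exact binomial interval 26.1 to 30.0), and 258 of 1960 spots of SBP, 13.2% (11.7 to 14.7), against 5.01% of the sham spots by construction. The intervals cover counting error only, since neighbouring spots of 1 section are not independent. Among the spots with at least 5000 UMIs, thinned to that number, the sham threshold was 38.9%, and 24.4% of 1955 spots of I/R and 10.7% of 1841 spots of SBP lay at or below it, so that these values differ from the first by the spots left out as well as by the thinning.

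Levels are given below as UMIs summed over the spots of a group per 1000000 UMIs outside the mitochondrial genes (CPM), so that the lower mitochondrial share does not by itself raise the level of other genes. Among genes with at least 200 UMIs in the section, a gene was called higher or lower when its CPM in the low-mt spots was at least 2-fold above or below that in the other spots. The 200 UMIs include those of the low-mt spots, so a gene can pass the minimum only through them. Mpeg1 of sham, with 169 UMIs in low-mt and 189 in other spots, is such a gene. Counts of genes called higher, also within lists, are thus partly set by this minimum. In sham, 696 of 6647 genes were higher (10.5%) and 143 were lower (2.15%). In I/R, 1538 of 8059 genes were higher (19.1%) and 1069 were lower (13.3%), and in SBP 755 of 6351 were higher (11.9%) and 509 were lower (8.01%). The median log2 ratio over all these genes was 0.21, 0.36 and 0.19 in sham, I/R and SBP. Relative to that median, with mitochondrial genes still left out, 428 genes were higher and 341 lower in sham, 725 and 1458 in I/R, and 497 and 758 in SBP. With mitochondrial UMIs kept in the denominator, 1906 genes were higher and 22 lower in sham, 4350 and 587 in I/R, and 2139 and 119 in SBP. In SBP the low-mt spots were shallow when mitochondrial UMIs were counted. Spots of SBP with at least 5000 UMIs alone, a filter added after the data were seen, gave 539 higher and 259 lower genes.

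The contractile apparatus of cardiomyocytes was lower in the low-mt spots of every section, most of all in I/R, whose threshold was also the lowest. The list of 20 ventricular sarcomere and calcium-handling genes took 76683 CPM in low-mt and 131151 CPM in other spots of sham, a log2 ratio of -0.77 (95% counting interval -0.79 to -0.76). In I/R it took 15468 against 96283 CPM (-2.64, -2.66 to -2.62), and in SBP 56697 against 116222 CPM (-1.04, -1.05 to -1.02). All 20 genes had at least 200 UMIs, and 2, 19 and 14 of them were called lower in sham, I/R and SBP, and none was called higher. From spot to spot the list ranged from 24103 to 142996 CPM in sham with a median of 75131 CPM, from 5088 to 65353 CPM in I/R with a median of 16158 CPM, and from 20364 to 125699 CPM in SBP with a median of 55556 CPM. Thus the low-mt spots of sham lay nearer to the other spots of their section than those of I/R did. In SBP spots with at least 5000 UMIs alone, with the threshold taken anew among them, the log2 ratio of the list was -0.81. With the sham threshold in every section it was -1.42 in I/R and -0.66 in SBP, against -0.77 in sham. The order of the sections thus depended in part on the threshold, and SBP did not lie below sham at the common one.

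Single genes showed the same order of the sections. Myl2 (mm10 chr5:122100951-122113472, plus strand), the regulatory light chain of the ventricle, stood at 12774 CPM in low-mt and 24422 CPM in other spots of sham, at 2194 and 15957 CPM in I/R, and at 10713 and 23115 CPM in SBP. Myh6, the main myosin heavy chain of the adult mouse heart, had log2 ratios of -0.79, -3.20 and -1.27 in sham, I/R and SBP. Mb, the oxygen store myoglobin, stood at 13000.1 CPM in low-mt and 22174 CPM in other spots of sham, at 2097 and 15988 CPM in I/R, and at 9876 and 19850.1 CPM in SBP. Ryr2, the calcium release channel of the sarcoplasmic reticulum, and Casq2, which stores calcium there, had log2 ratios of -3.68 and -3.79 in I/R, against -1.17 and -0.98 in sham and -1.58 and -1.47 in SBP. Their ratios in I/R were thus lower than that of the sarcomere list, to which both belong.

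Genes of fuel use were lower as well. The list of 18 genes for the uptake and oxidation of fatty acids had log2 ratios of -0.83, -2.44 and -1.22 in sham, I/R and SBP, with 1, 18 and 15 of 18 genes called lower. Hadhb, a subunit of the enzyme that carries out the last steps of the oxidation of long chains, stood at 665 and 1188 CPM in low-mt and other spots of sham, at 145 and 1072 CPM in I/R and at 324 and 1109 CPM in SBP. For the lowest ratios, only genes whose level reached 100 CPM outside the low-mt spots were ranked. By this rule Hadhb was among the 10 lowest in SBP (-1.77), together with Etfdh (-1.78) and Plin5 (-1.89). Etfdh passes electrons from this pathway to the respiratory chain, and Plin5 is a lipid droplet protein. In sham the lowest ratios by this rule belonged to Lrtm1 (-1.81), Grb14 (-1.45) and Tcea3 (-1.42). Rpl3l, the striated muscle form of a ribosomal protein, was among the 10 lowest by this rule in all 3 sections. Its log2 ratios were -1.29, -3.62 and -1.68 in sham, I/R and SBP.

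Subunits of the respiratory chain that are encoded in the nucleus were less reduced in I/R than the sarcomere. The 36 nuclear genes of complex I had log2 ratios of -0.63, -1.67 and -0.93 in sham, I/R and SBP, and the 32 measured genes of complexes III to V had -0.64, -1.72 and -0.90. None of the 36 complex I genes was called lower in sham, 35 were in I/R and 11 in SBP. Per UMI of the sarcomere list there were 2.09 UMIs of these nuclear genes in low-mt against 1.09 in other spots of I/R, whereas the values were 1.04 and 0.942 in sham and 1.10 and 1.01 in SBP. These genes work in every cell with mitochondria, while sarcomere genes do not.

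Mitochondrial transcripts were lower than both. Per nuclear respiratory chain UMI there were 5.68 mitochondrial UMIs in low-mt and 7.97 in other spots of sham, 3.66 and 7.99 in I/R, and 5.14 and 7.65 in SBP. Per sarcomere UMI the values were 5.88 and 7.51 in sham, 7.63 and 8.73 in I/R, and 5.64 and 7.69 in SBP. Both ratios use the mitochondrial UMIs that chose the spots, so that lower values are partly set by the choice. In I/R the ratio to the sarcomere list thus differed by a log2 of -0.19 only, and the ratio to the nuclear respiratory chain by -1.13.

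Among the mitochondrial transcripts themselves, the make-up shifted a little. mt-Co1, which encodes the catalytic subunit of cytochrome c oxidase, took 17.1% of mitochondrial UMIs in low-mt and 19.9% in other spots of sham, 16.2% and 20.8% in I/R, and 17.0% and 20.5% in SBP. mt-Cytb, the mitochondrial subunit of complex III, took 10.4% and 9.31% in sham, 10.9% and 10.0% in I/R, and 10.8% and 9.74% in SBP. The counting intervals of the log2 ratio lay below 0 for mt-Co1 and above 0 for mt-Cytb in all 3 sections. Other transcripts shifted as well, among them mt-Nd2 (log2 ratio 0.29) and mt-Co2 (-0.11) in sham and mt-Nd3 (0.24) in I/R. The spots were chosen by the sum of these transcripts, not by the share of any of them. However, mt-Co1 is a large part of that sum, so its share is not independent of the choice.

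The RNA in place of mitochondrial and cardiomyocyte transcripts was spread over many genes. Of all UMIs in low-mt against other spots of I/R, the mitochondrial genes took 10.6% against 45.7% and the cardiomyocyte lists 5.66% against 15.0%. The lists of leukocyte genes took 1.87% against 0.268%, the matrix lists 1.74% against 0.471%, the vessel lists 0.586% against 0.233%, the cytoskeleton, annexin and S100 lists 4.24% against 0.923%, and the ribosomal protein list 7.63% against 3.03%. Apart from the red cell list, all remaining genes took 67.2% against 34.0%, and these still include other lists, such as the atrial and fat cell lists. In sham these remaining genes took 46.5% against 29.9%, and in SBP 52.6% against 32.1%. Leukocyte lists took 0.621% against 0.120% in sham and 0.886% against 0.155% in SBP. These are shares of all UMIs, so the lower mitochondrial share that chose the spots by itself raises the shares of other genes. The cardiomyocyte lists here include the nuclear respiratory chain, whose genes work in every cell with mitochondria. In I/R these nuclear genes gave 32952 UMIs and the sarcomere list 15802 UMIs in low-mt spots. In other spots of I/R they gave 1663690 and 1522205 UMIs. The leukocyte, matrix and vessel lists accounted for a small part of the difference in every section, but they hold only 67, 44 and 42 genes. How much RNA came from the cells that these lists mark cannot be read from these shares.

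Genes of myeloid leukocytes and of antigen presentation had high ratios in all 3 sections, sham included. The list of monocytes and inflamed macrophages took 2332 CPM in low-mt and 374 CPM in other spots of sham, 6911 and 1411 CPM in I/R, and 3846 and 727 CPM in SBP, with log2 ratios of 2.64, 2.29 and 2.40. Of its genes with at least 200 UMIs, all 7, 14 and 11 were called higher in sham, I/R and SBP. That minimum counts the low-mt spots too, so it favours genes that are high there. The neutrophil list had log2 ratios of 2.83, 2.49 and 2.90, at 395, 2502 and 1620 CPM in the low-mt spots of sham, I/R and SBP. The broader macrophage list had 1.63, 1.92 and 1.63, and the genes of MHC class II, which present antigen, had 1.87, 1.76 and 1.80. The lymphocyte list took 53.4 against 26.8 CPM in low-mt and other spots of sham and 81.2 against 26.9 CPM in I/R. In SBP it took 27.8 against 26.7 CPM, a log2 ratio of 0.058 with a counting interval of -0.74 to 0.76.

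Chemokines, phagocyte enzymes and alarmins were among these genes. Ccl2, which attracts monocytes, stood at 317 CPM in low-mt and 36.6 CPM in other spots of sham, at 878 and 196 CPM in I/R, and at 550.0 and 84.7 CPM in SBP. Ccr2, its receptor, stood at 96.2 and 15.3 CPM in sham, 402 and 57.9 CPM in I/R, and 123 and 23.3 CPM in SBP. Lyz2, the lysozyme of myeloid cells, stood at 1970 and 440 CPM in sham, 4957 and 1010 CPM in I/R, and 2514 and 541 CPM in SBP. The level of these genes in low-mt spots was thus highest in I/R, with log2 ratios to the other spots of 2.16 to 3.12 over the sections. S100a8, a neutrophil alarmin, had 98.3, 871 and 501 CPM in low-mt spots of sham, I/R and SBP against 13.7, 150.0 and 74.0 CPM in other spots. Arg1, an arginine-degrading enzyme of wound macrophages, led the ratios of I/R among genes with at least 100 CPM, with 476 against 60.0 CPM (log2 ratio 2.99) and had 189.9 against 21.6 CPM in SBP. Of the broader macrophage list, 10 of 13 measured genes in sham and 11 of 13 in I/R were called higher. Of the genes taken to mark macrophages, C1qb and Adgre1 were called higher in all 3 sections, while C1qa and Csf1r were not called higher in every section. Lyve1, a marker of resident macrophages, had only 19, 9 and 9 UMIs in the low-mt spots of sham, I/R and SBP. Its log2 ratios of -0.12, -0.93 and -0.16 had counting intervals that all included 0, so its direction is not settled.

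Matrix genes of wounds had similar ratios, and Spp1 had the highest of its list in sham and SBP, but not in I/R. Spp1 (mm10 chr5:104435118-104441050, plus strand) encodes osteopontin, a secreted protein of macrophages and wounds. It stood at 1950 CPM in low-mt and 71.3 CPM in other spots of sham, the highest ratio of that section among genes with at least 100 CPM (log2 ratio 4.77), at 4025 and 612 CPM in I/R (2.72), and at 2192 and 168 CPM in SBP (3.71), again the highest by the same rule. The list of activated matrix, to which Spp1 belongs, had log2 ratios of 2.20, 1.88 and 2.22 in sham, I/R and SBP, with 10 of 12, 9 of 13 and 12 of 12 measured genes called higher. Fn1, fibronectin, stood at 487 and 67.7 CPM in sham, 1844 and 320 CPM in I/R, and 1013 and 129 CPM in SBP. Thbs1, thrombospondin 1, had log2 ratios of 3.19, 2.75 and 3.63 in that order. Timp1, an inhibitor of matrix proteases, had 564, 1412 and 1334 CPM in low-mt spots against 99.1, 538 and 296 CPM in other spots.

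Genes of fibroblasts and collagens varied more between the sections. The list of fibroblast genes and collagens had log2 ratios of 1.10, 0.36 and 0.87 in sham, I/R and SBP, and the value in I/R, where the median over all genes was 0.36, became -0.0051 relative to that median. Of its 20 genes, 11 were called higher in sham, 9 in SBP, and 2 higher and 2 lower in I/R. Col1a1, a chain of type I collagen and called higher in all 3 sections, had 817 against 294 CPM in sham, 577 against 260.5 CPM in I/R, and 483 against 187 CPM in SBP. Dcn, the fibroblast proteoglycan decorin, had 783 against 532 CPM in sham, 222 against 409 CPM in I/R, and 489 against 443 CPM in SBP.

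Smooth muscle genes were also higher in low-mt spots when summed over spots, but the typical spot differed less. The median spot held 1212 CPM of the list in low-mt and 826 CPM in other spots of sham. These medians were 1499.9 and 626 CPM in I/R and 1129 and 479 CPM in SBP. The highest low-mt spot reached 29819, 37988 and 22443 CPM in sham, I/R and SBP. Summed over spots, the list took 3732 and 1054 CPM in low-mt and other spots of sham, 3460 and 958 CPM in I/R, and 2589 and 671 CPM in SBP, with log2 ratios of 1.82, 1.85 and 1.95. Tagln, a contractile gene of smooth muscle, stood at 373 and 43.6 CPM in sham, 275 and 55.9 CPM in I/R, and 260 and 29.2 CPM in SBP. Acta2, the smooth muscle actin that myofibroblasts also make, stood at 1119 and 445 CPM in sham, 1087 and 250.2 CPM in I/R, and 710.4 and 124 CPM in SBP. The list of large vessel and endocardial endothelium had log2 ratios of 1.55, 1.16 and 1.57, whereas the pericyte list had -0.24, -0.67 and -0.59 and the capillary endothelium list -0.28, -0.13 and -0.20. Of the 12 capillary genes none was called lower in any section and 1 was called higher in SBP, and their median log2 ratio was 0.023, 0.21 and -0.069 in sham, I/R and SBP. With mitochondrial UMIs kept in the denominator the capillary ratio turned to 0.18, 0.59 and 0.32, and that of pericytes to 0.21 in sham and 0.047 in I/R.

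Genes of the cytoskeleton of non-muscle cells were higher as well. Actb, the actin of non-muscle cells, had the largest gain of every section, from 2017 to 5989 CPM in sham, from 3776 to 13264 CPM in I/R and from 2612 to 9071 CPM in SBP. The list of the non-muscle cytoskeleton took 17474 against 6572 CPM in sham, 37142 against 12771 CPM in I/R and 23434 against 8286 CPM in SBP, with 13 of 15 genes called higher in each section, and that of annexins and S100 proteins had log2 ratios of 1.53, 1.28 and 1.47. Ftl1, the light chain of the iron store ferritin, stood at 2118 and 420.4 CPM in sham, 5987 and 1519 CPM in I/R, and 2909 and 712 CPM in SBP. Ftl1 and ribosomal protein genes have near-identical copies in the genome among which reads may be split. The ribosomal protein list had smaller log2 ratios of 0.64, 0.61 and 0.71, and 2, 0 and 1 of its 39 genes were called higher.

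**Figure D2:**
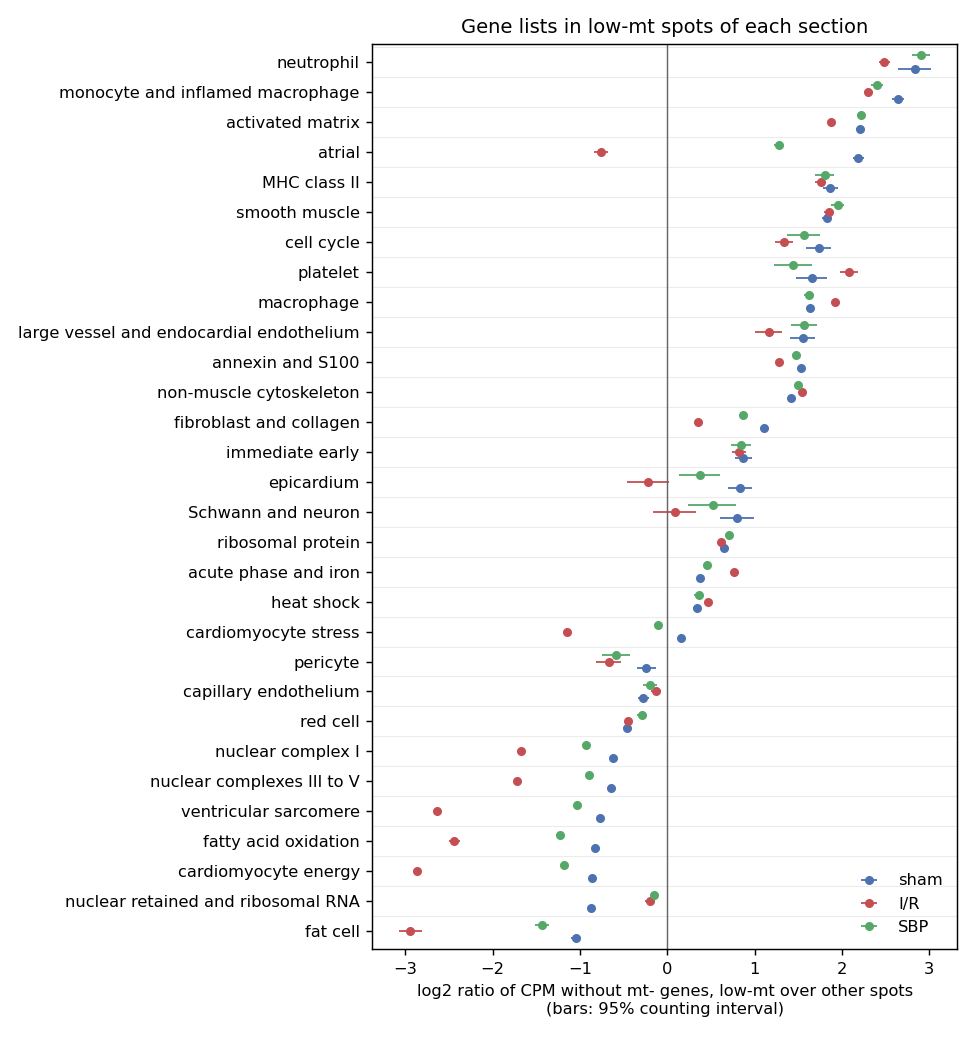
Log2 ratio of CPM without mitochondrial genes, low-mt over other spots (x axis), for the gene lists (y axis) with at least 1000 UMIs in every section, with 1 point per section and 95% counting intervals as bars. Neutrophil, monocyte, macrophage and activated matrix lists lie to the right in all 3 sections, and the sarcomere list lies at -0.77 in sham, -1.04 in SBP and -2.64 in I/R.

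Genes of stressed cardiomyocytes did not follow the other groups. The list of 10 such genes had a log2 ratio of 0.16, -1.14 and -0.11 in sham, I/R and SBP, and the signs in sham and SBP depended on the threshold and the scaling, with -0.062 in sham at the 2.5th percentile and 0.12 in SBP at the 10th percentile. Ankrd1, a stress-induced protein of the sarcomere and nucleus, stood at 2272 CPM in low-mt and 1666 CPM in other spots of sham, at 1083 and 3210 CPM in I/R, and at 2275 and 2563 CPM in SBP. Nppb, the natriuretic peptide of strained ventricles, stood at 384 and 229 CPM in sham, 459 and 937 CPM in I/R, and 444 and 364 CPM in SBP. In I/R both were therefore lower in the low-mt spots at the 5th percentile, while with all spots at or below the sham threshold as the group their log2 ratios were 0.15 and 0.73. In SBP the sign turned for Ankrd1 at the 10th percentile (0.067) and for Nppb at the 2.5th percentile (-0.39).

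The stress genes of I/R peaked above its threshold. Over 20 bins of spots along the mitochondrial share, the stress list of I/R took 6651 CPM in the low-mt spots, 21255 CPM in the bin with a median share of 28.6%, 23127 CPM in the bin at 41.1% and 7659.6 CPM in the bin of highest share. With all 584 spots of I/R at or below the sham threshold as the group, the log2 ratio of the list was 0.37. In SBP the bins ran from 10207 CPM in the low-mt spots to 14226 CPM in the bin at 41.9%, and in sham from 8844 CPM to 9665 CPM in the next bin.

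Nppa, the atrial natriuretic peptide that embryonic and strained ventricles also make, differed in direction between the sections. Nppa (mm10 chr4:148000722-148002079, plus strand) stood at 3281 CPM in low-mt and 705 CPM in other spots of sham, at 1239 and 2112 CPM in I/R, and at 5848 and 2390 CPM in SBP, with log2 ratios of 2.22, -0.77 and 1.29. It was the second gene by gain in CPM in sham and SBP. Myl7 and Sln, which mark atrial cardiomyocytes, had 0 UMIs in the low-mt spots of every section, and a count of 0 allows up to 3 UMIs, which are 3.21 CPM, 2.94 CPM and 4.91 CPM in sham, I/R and SBP. Of the other listed atrial genes only Stard10 had 200 UMIs in a section, with log2 ratios of 1.51, -0.61 and 0.039. In I/R the log2 ratio of Nppa was 0.90 when all spots at or below the sham threshold formed the group.

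**Figure D3:**
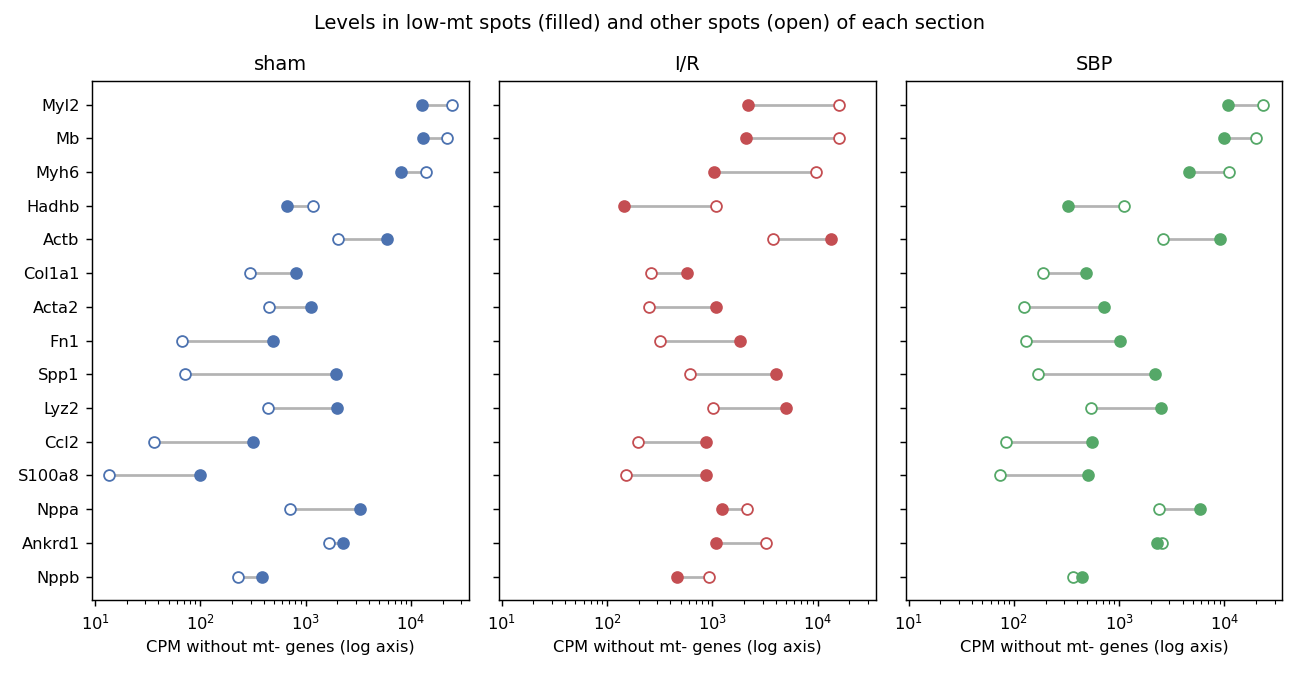
CPM without mitochondrial genes on a log axis (x axis) for 15 genes (y axis) in low-mt spots (filled) and other spots (open) of each section, joined by a line. Spp1 moves from 71.3 to 1950 CPM in sham, and Nppa is higher in low-mt spots of sham and SBP and lower in those of I/R, where its log2 ratio is 0.90 with the sham threshold.

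The low-mt spots of a section were not all of 1 kind. To compare single spots at 1 depth, each was thinned to 1000 UMIs outside the mitochondrial genes, which left out 3 low-mt and 4 other spots of sham, 0 and 4 of I/R, and 0 and 5 of SBP, and a spot was called high for a list when it exceeded the 95th percentile of the other spots of its section. High for at least 1 of the macrophage, monocyte and neutrophil lists were 58 of 109 low-mt spots in sham, 53.2% (95% exact binomial interval 43.4 to 62.8), 79 of 105 in I/R, 75.2% (65.9 to 83.1), and 64 of 98 in SBP, 65.3% (55.02 to 74.6), against 9.21%, 9.88% and 9.80% of the other spots. The UMIs to be exceeded in sham, I/R and SBP were 4, 7 and 4 for macrophages, 2, 6 and 3 for monocytes, and 0, 3 and 2 for neutrophils. In sham a single neutrophil UMI thus sufficed, and a high spot there can hold fewer leukocyte UMIs than a spot of I/R not called high. High for activated matrix were 45.9%, 36.2% and 57.1% in sham, I/R and SBP, against 3.07%, 3.70% and 3.23% of the other spots. The UMIs to be exceeded were 4, 12 and 6, so these shares do not rank the sections by level. Without thinning, 66.1%, 54.3% and 77.6% of the low-mt spots were high for activated matrix. High for smooth muscle were 26, 20 and 23 low-mt spots, and 20, 12 and 11 of these were high for none of the leukocyte lists.

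In sham the low-mt spots high for smooth muscle and those high for a leukocyte list were largely different ones. The 52 low-mt spots of sham that were high for a leukocyte list but not for smooth muscle held 3475 CPM of Spp1, 7868 CPM of activated matrix and 58869 CPM of the sarcomere list. The 20 spots high for smooth muscle but no leukocyte list held 59.4 CPM of Spp1, 20987 CPM of the fibroblast and collagen list and 80037 CPM of the sarcomere list. These groups were defined after the data were seen, and the lists that define a group are not given as its result.

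In sham a further kind was marked by Nppa. There, 13 of 109 low-mt spots were high for Nppa and for neither leukocyte lists nor smooth muscle, which is 11.9% against 3.54% of the other spots. In SBP they were 6 of 98, or 6.12% (95% exact binomial interval 2.28 to 12.9) against 3.77% of the other spots, and in I/R 1 of 105 against 4.61%. The interval in SBP, which covers counting error only, thus includes the share among other spots. The Nppa UMIs to be exceeded were 2, 7 and 9 in sham, I/R and SBP, so these shares do not rank the sections by Nppa level. In low-mt spots that level was 3281 CPM in sham and 5848 CPM in SBP. Those 13 spots of sham held 116893 CPM of the sarcomere list against 131151 CPM in other spots, 15124 against 5705 CPM of the fibroblast and collagen list, and 8.30 CPM of Spp1. Their median mitochondrial share was 35.6%, close to the threshold. The 6 spots of SBP held 89590 CPM of the sarcomere list, 17481 CPM of the fibroblast and collagen list and 32.9 CPM of Spp1.

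In I/R the sarcomere list was low in nearly all low-mt spots. After thinning, 95 of 105 low-mt spots of I/R (90.5%) held less than 0.25 times the median of the other spots in sarcomere UMIs, against 8 of 109 in sham (7.34%) and 10 of 98 in SBP (10.2%). The 12 spots of I/R high for smooth muscle but no leukocyte list held 15366 CPM of the sarcomere list, and the 71 high for a leukocyte list but not smooth muscle held 14722 CPM. High for none of the leukocyte, smooth muscle, matrix, fibroblast, Nppa, large vessel and red cell measures were 5, 10 and 9 low-mt spots of sham, I/R and SBP.

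**Figure D4:**
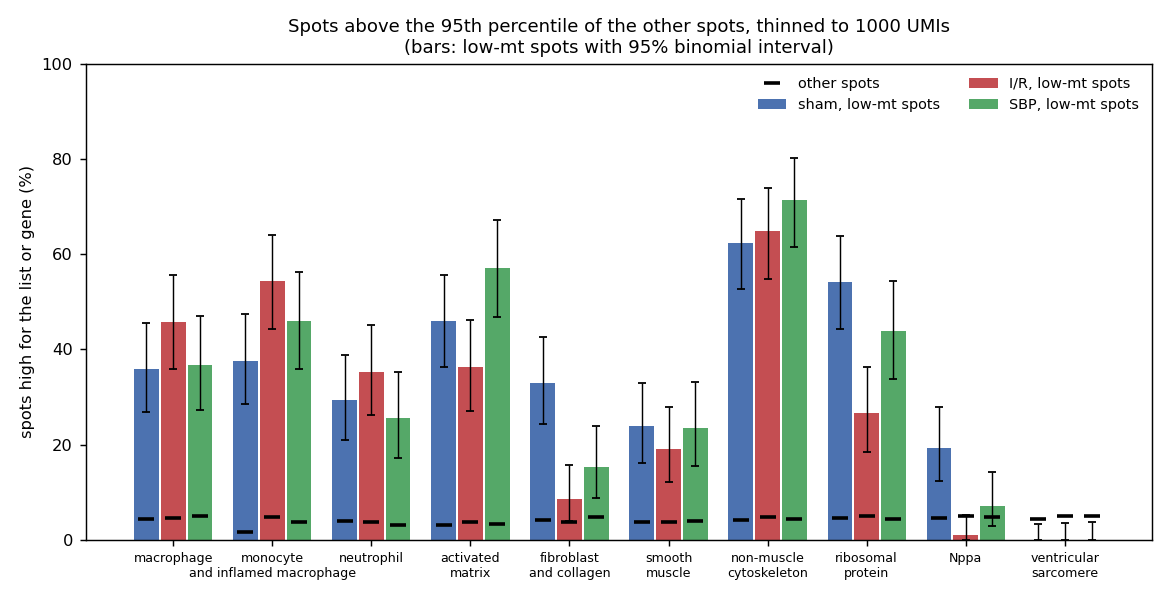
Percent of low-mt spots (bars, y axis) that exceeded the 95th percentile of the other spots of their section for each list or gene (x axis) after thinning to 1000 UMIs, with 95% exact binomial intervals and the percent of other spots as a black dash. Monocyte and activated matrix lists are high in 36.2% to 57.1% of low-mt spots, and 0 of 109, 105 and 98 low-mt spots of sham, I/R and SBP are high for the sarcomere list, which allows up to 3.33%, 3.45% and 3.69%.

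The sarcomere level was similar on both sides of the threshold. Along the 20 bins the sarcomere list of I/R rose from 15468 CPM in the low-mt spots to 26539, 35435 and 47493 CPM in the next 3 bins, and the monocyte list went from 6911 to 5807, 4487 and 3546 CPM. In sham the sarcomere list rose from 76683 to 107942 CPM in the second bin and 117323 CPM in the third, and the monocyte list went from 2332 to 720.0 and 589 CPM. The 10 spots just inside the threshold of I/R, at 13.8% to 14.3%, held 19716 CPM of the sarcomere list, and the 10 just outside, at 14.4% to 15.0%, held 21832 CPM. The corresponding values were 99496 and 91224 CPM in sham and 78755 and 77847 CPM in SBP.

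**Figure D5:**
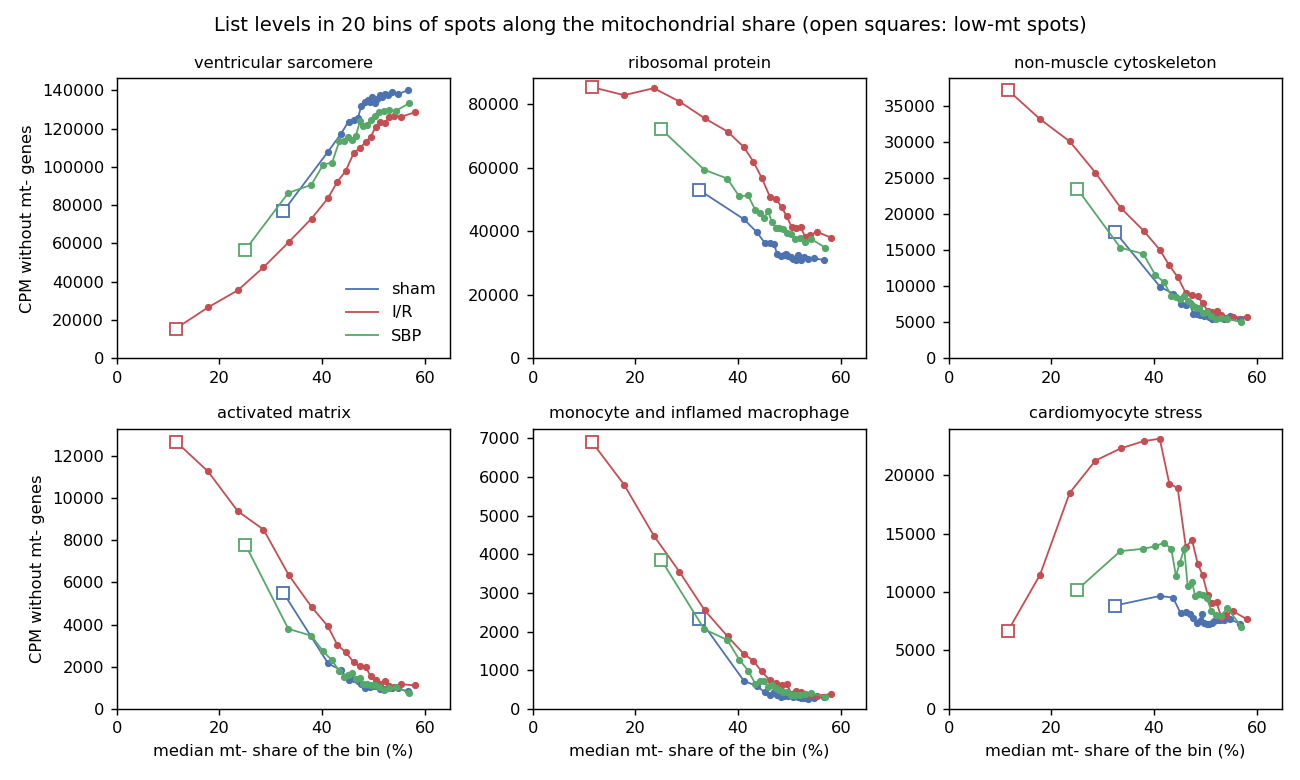
CPM without mitochondrial genes (y axis) of 6 gene lists in 20 bins of equal spot number along the mitochondrial share (x axis, median of the bin in percent), with the low-mt spots of each section as open squares. In all sections the sarcomere level is lowest and the cytoskeleton, matrix and monocyte levels are highest in the low-mt spots, whereas the stress list of I/R peaks at 23127 CPM in the bin at 41.1%.

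At an equal mitochondrial share the sections still differed. Between 25% and 35% lay 48 spots of sham, 205 of I/R and 135 of SBP, a band chosen after the data were seen. The sarcomere list took 79506 CPM, 52211 CPM and 78385 CPM in sham, I/R and SBP in these spots. The stress list took 8326 CPM, 22197 CPM and 13071 CPM in sham, I/R and SBP, and Nppb took 374, 1658 and 570 CPM. The activated matrix list took 4839, 7644 and 4471 CPM and the monocyte list 1717, 3115 and 2519 CPM, whereas the smooth muscle list took 5213 CPM in sham against 1740.1 and 1359.8 CPM in I/R and SBP. The median share in the band was 31.3%, 30.3% and 31.2% in sham, I/R and SBP. Summed over the spots of the band, I/R thus held less sarcomere and more stress RNA than sham and SBP, and sham held the most smooth muscle RNA. Such sums can be raised by single spots, and the typical spot of the band was not examined.

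Many of the genes called higher were shared by the sections. Of 6182 genes with at least 200 UMIs in all 3 sections, 378 were called higher in the low-mt spots of all 3, which are 58.9%, 44.0% and 55.3% of the 642, 860 and 684 called in sham, I/R and SBP. Ranked by their smallest log2 ratio over the sections, Thbs1 (2.75), Spp1 (2.72), Tgfbi (2.64), Mpeg1 (2.63) and S100a8 (2.54) came first. The minimum of 200 UMIs counts the low-mt spots, so the number of shared genes and this ranking are partly set by it. Mpeg1 in sham (169 UMIs in low-mt and 189 in other spots) and Thbs1 in SBP (107 and 156) passed it only through the low-mt spots. Tgfbi is a matrix protein induced by TGF-β and Mpeg1 a pore-forming protein of macrophages. Called lower in all 3 were 73 genes, which are 62.4%, 7.44% and 14.6% of the 117, 981 and 501 called in the same order. Since only 117 were called lower in sham, most of the 981 called in I/R could not be called lower in all 3. Over all 6647, 8059 and 6351 tested genes of sham, I/R and SBP, 10.5%, 19.1% and 11.9% were called higher and 2.15%, 13.3% and 8.01% lower. These sets are larger than the 6182 genes of the overlap, so the shares are not those of the 6182 genes.

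Other lists, apart from the fat cell list and that of nuclear retained and ribosomal RNA, varied less or rested on few UMIs. The list of nuclear retained and ribosomal RNA took 4342 CPM in low-mt against 7982 CPM in other spots of sham, a log2 ratio of -0.88. Over all settings its log2 ratio lay between -0.57 and 0.52 in I/R and between -0.57 and 0.37 in SBP. Hemoglobin and other red cell genes had log2 ratios of -0.46, -0.45 and -0.29 in sham, I/R and SBP, which became 0.27 in I/R and 0.23 in SBP with mitochondrial UMIs kept in the denominator. Platelet genes, of which 1 had 200 UMIs, had 1.66, 2.08 and 1.44, and cell cycle genes 1.73, 1.34 and 1.56. Of the measured cell cycle genes, 11 of 12 were called higher in I/R, against 19.1% of all tested genes there, and 2 of 3 in sham. The minimum of 200 UMIs counts the low-mt spots and so favours genes that are high there. Chaperones had 0.34, 0.47 and 0.36, near the median over all genes, and immediate early genes 0.87, 0.82 and 0.85. Epicardial genes had 0.83, -0.22 and 0.37, on 150.7 to 526 CPM. None of the 10 genes of airway and gut epithelium had 200 UMIs in any section. The fat cell list took 2669 CPM in low-mt against 5508 CPM in other spots of sham and 480 against 3678 CPM in I/R. In SBP its log2 ratio lay between -1.77 and -0.91 over all settings. Adipoq, the defining gene of fat cells, had 0 UMIs in the low-mt spots of every section. The fat cell list was driven by Lpl, the lipoprotein lipase that cardiomyocytes also make.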

How the data were processed

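Visium libraries of a sham, an SBP and an I/R mouse, with 1 heart section of each, were used, and the single-nucleus data that the paper also describes were not used here. What the authors deposited are counts, the UMIs of each gene at each spot over tissue, with no normalization. The submitters' processing notes name Space Ranger 1.3.0 and mm10. In the paper the version differs and the reference is human, while the files list 32285 mouse genes. Of their identifiers, 32158 were found in GENCODE M21 (GRCm38), the source of gene positions.

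A spot needed 200 detected genes, which removed 3 spots of sham, 1 of I/R and 2 of SBP. UMIs were summed over low-mt and over other spots and divided by their UMIs outside mitochondrial genes. A ratio of 2 or more was called for genes with at least 200 UMIs. Intervals at the 95% level were exact Poisson, exact binomial (Clopper-Pearson) or exact conditional binomial and cover counting error only. Spots were neither clustered nor given cell type names, no doublet caller was run, and spot positions were not used here. Thinning was a hypergeometric draw with a fixed seed. The members, the 34 gene lists, which share no gene, and the thresholds were chosen with earlier results of these data known. Genes were named by a rule that took, per section, the 10 highest ratios (100 CPM or more in low-mt spots), the 10 lowest (100 CPM or more in other spots), the 5 largest gains and losses in CPM, list members, and the genes that the paper maps (Nppb, Npr3, Vim, Acta2, Ankrd1). The text gives a part of these. Ratios and intervals were tested on simulated data. The software was matplotlib 3.10.9, numpy 2.4.6, pandas 2.3.3, scipy 1.17.1 and Python 3.11.15. Alternatives changed the percentile, the denominator, the centring, the weight of spots, the filters, the thinning and the use of red cell genes.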

Additional observations from a re-analysis of the deposited data

Results flagged for a closer look

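For a few measures the low-mt spots lay above the other spots in 1 section and below them in another. These differences between sections were not tested, since each condition has 1 section. The cardiomyocyte stress list had log2 ratios of 0.16, -1.14 and -0.11 in sham, I/R and SBP. Within it, Ankrd1 had 0.45, -1.57 and -0.17, and Nppb had 0.74, -1.03 and 0.29. The atrial list had 2.19, -0.76 and 1.28 in sham, I/R and SBP, and Nppa, which gave most of its UMIs, had 2.22, -0.77 and 1.29. The fibroblast gene Dcn had 0.56, -0.88 and 0.14 in sham, I/R and SBP.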

How the results depend on the processing

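No paired analysis was possible because there is only 1 section of each condition. The spots, lists and thresholds were chosen on these counts, and each interval covers counting error only. With mitochondrial UMIs counted, the low-mt spots of SBP were shallow (61.2% lay below the 10th percentile of depth of the other spots). Log2 ratios of the sarcomere list stayed below 0 under every alternative. They were -1.06, -2.94 and -1.40 in sham, I/R and SBP at the 2.5th percentile, -0.54, -2.32 and -0.73 at the 10th percentile, -0.32, -1.92 and -0.52 with mitochondrial UMIs in the denominator, and -0.99, -3.00 and -1.22 relative to the median of all genes. With the sham threshold they were -1.42 in I/R and -0.66 in SBP, and with equal weight for every spot -2.60 and -1.08. In spots with at least 5000 UMIs, an alternative chosen after seeing the data, as was the band of equal share, they were -0.76 in sham and -0.81 in SBP, and 259 genes were lower in SBP.

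Numbers of genes moved more. At the 2.5th percentile 419 were lower in sham and 831 in SBP, and at the 10th percentile 425 were higher and 24 lower in sham and 500 and 185 in SBP. With the sham threshold 710 were lower in I/R, and 446 were higher and 104 lower in SBP. With mitochondrial UMIs kept, 1906 were higher and 22 lower in sham, 4350 and 587 in I/R, and 2139 and 119 in SBP. Relative to the median 428 were higher and 341 lower in sham, and 725 and 497 were higher in I/R and SBP. With a minimum of 500 UMIs 278 were higher and 70 lower in sham, 721 were higher in I/R, and 309 were higher and 335 lower in SBP. With a minimum of 50 UMIs the numbers were 1678 and 371 in sham, 1794 and 919 in SBP, and 2511 higher in I/R. The share of spots at or below the sham threshold was 21.4% in I/R and 6.58% in SBP for the 2.5th percentile, 36.9% and 25.4% for the 10th, and 24.4% of 1955 and 10.7% of 1841 spots when those with at least 5000 UMIs were thinned to that number and shallower ones were left out.

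Of 881 list ratios under alternatives 21 changed sign, as did 7 of 1300 gene ratios, counting only ratios whose main interval excluded 0. Apart from these, 433 list ratios and 559 gene ratios lay outside the counting interval of their main value. The stress list turned to -0.062 (2.5th percentile) and -0.050 (relative to the median) in sham, to 0.37 in I/R with the sham threshold, and to 0.12 (10th percentile), 0.18 (sham threshold), 0.41 (mitochondrial UMIs kept) and 0.070 (spots with at least 5000 UMIs) in SBP. With the sham threshold the atrial list turned to 0.89, Nppa to 0.90, Nppb to 0.73 and Ankrd1 to 0.15 in I/R. In SBP Ankrd1 turned to 0.067 (10th percentile), 0.22 (sham threshold) and 0.35 (mitochondrial UMIs kept), and Nppb to -0.39 (2.5th percentile). With mitochondrial UMIs kept, the pericyte list turned to 0.21 in sham and 0.047 in I/R, capillary endothelium to 0.18, 0.59 and 0.32, and red cell genes to 0.27 in I/R and 0.23 in SBP. The list of nuclear retained and ribosomal RNA turned from below 0 to 0.071 (10th percentile), 0.093 (sham threshold) and 0.52 (mitochondrial UMIs kept) in I/R. In SBP it turned from below 0 to 0.37 (mitochondrial UMIs kept) and 0.28 (equal weight). The fibroblast list of I/R turned to -0.0051 relative to the median. The cause of these changes was not tested.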
